A study of Mus musculus with 14 samples.

Results

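Polycomb proteins keep genes silent by marking chromatin, and 10 genes of this system were followed across 14 arrays of sorted mouse T cells. They were Ezh1, Ezh2, Eed, Suz12, Jarid2, Bmi1, Ring1, Rnf2, Cbx7 and Asxl1, 10 of the 19937 genes that had a probe set with a single gene symbol. Where a gene had several such probe sets, the one with the highest average signal across the arrays was used. The set was proposed with results of these data in view: Ezh2 and Asxl1 were chosen by measured values, since they had some of the smallest p-values in the spleen comparison of ENK KO with wild type. That comparison is therefore given as a description with no test.

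The cells were sorted by flow cytometry from C57BL/6 mice. Thymocytes carrying both CD4 and CD8 were labelled wild type (WT, n = 3) or ENK KO (n = 2), and CD8+ cells of the spleen were labelled WT (n = 4) or ENK KO (n = 5). What ENK abbreviates is not written in the labels. The title of the series mentions Engrailed-2, the product of the homeobox gene En2. WT animals were 7 months old, with 1 array of each WT group labelled female. The thymus ENK KO arrays came from a 2-month-old female (replicate 1) and a 7-month-old male (replicate 29). The spleen ENK KO arrays came from 2-month-old females (replicates 3 and 6) and from males aged 9, 6 and 7 months (replicates 25, 28 and 31). Genotype, age and sex thus overlapped in part. Replicates are named here by the numbers of the labels. Whether every array had its own animal is not written outright, so a p-value here speaks only of the spread among these arrays. The number of arrays limits the precision.

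Polycomb repressive complex 2 (PRC2) methylates histone H3, and its catalytic subunit is either Ezh2, which is characteristic of dividing cells, or Ezh1, which is common in resting cells. Eed and Suz12 are its core partners and Jarid2 an accessory subunit that helps it reach chromatin. Polycomb repressive complex 1 (PRC1) attaches ubiquitin to histone H2A through the ligases Ring1 and Rnf2, works with Bmi1, and binds the PRC2 mark through chromodomain proteins such as Cbx7. Asxl1 is the partner of the deubiquitinase Bap1, which removes that ubiquitin. In T cell development Ezh2 is known for its role in expanding thymocytes and in the differentiation of effector cells.

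Several facts of the series bear on the values. The CD3 chain gene Cd3e was high in all groups, and the recombinase gene Rag1 marked the thymus arrays. The array labelled spleen ENK KO replicate 28 stood apart: its Cd4 value was 12.20 and its Foxp3 value 9.87, against at most 6.92 and 7.48 on the other spleen arrays, while its Cd8a value was 6.78, against at least 12.06. Differences and balances of the 10 genes that use it are therefore given with and without it. Spleen WT replicate 22 was labelled female, yet its Xist value of 5.90 lay among those of the arrays labelled male (5.52 to 6.38) and not among the other female-labelled arrays (12.36 to 13.37). En2 itself lay near the low end of the signal on most arrays, at 6.01 to 6.14 in thymus and 6.12 to 7.87 in spleen. The highest value, 7.87, was on spleen ENK KO replicate 31 and exceeded every array median. Since the position of the En2 probes relative to a deletion is not stated, En2 does not check the genotype labels. Array medians ran from 7.14 to 7.25.

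A further fact touches every comparison between tissues. No probe set had exactly the same value on a thymus and a spleen array in any of the 45 cross-tissue pairs of arrays, whereas thymus arrays shared 24.6% to 30.5% of their values pairwise and spleen arrays 4.32% to 7.85%. In the 5 thymus arrays 2205 probe sets (7.82%) had a single value throughout, against 9 (0.0319%) in the 9 spleen arrays. The tissues thus look to have been summarised as separate sets of arrays, so tissue and array set cannot be told apart. The p-values given for tissue differences cover only the spread between arrays and not an offset between the sets. Among the Polycomb genes, the 5 thymus arrays held 5 distinct values for Ezh2, Rnf2, Cbx7 and Asxl1, 4 for Ezh1 and Bmi1, and 3 for Eed, Suz12, Jarid2 and Ring1. Their thymus SDs, and those of other genes named below, are small where values repeat, which also lowers the SE and p.

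The promoters of 3 genes are shown because these genes differed most clearly between the populations or carry the Ezh1 to Ezh2 comparison. They are RefSeq sequences of the GRCm38.p6 assembly, from 250 bases before to 50 after an annotated start, 5′ to 3′ along the gene. Capitals mark the words searched for: E2F words (TTTCCCGC, TTTCGCGC, TTTGCCGC or TTTGGCGC), the cell cycle element TTTGAA and the CCAAT box, each on either strand. The words were chosen after the values had been seen. All 10 genes matched the promoter table.
Ezh2 (chr6:47594981-47595280, minus strand): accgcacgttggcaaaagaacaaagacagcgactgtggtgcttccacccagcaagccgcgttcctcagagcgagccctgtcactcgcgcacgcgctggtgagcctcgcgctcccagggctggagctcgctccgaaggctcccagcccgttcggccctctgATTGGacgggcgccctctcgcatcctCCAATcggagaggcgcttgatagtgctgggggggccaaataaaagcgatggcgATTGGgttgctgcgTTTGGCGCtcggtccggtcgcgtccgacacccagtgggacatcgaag
Ezh1 (chr11:101226414-101226713, minus strand): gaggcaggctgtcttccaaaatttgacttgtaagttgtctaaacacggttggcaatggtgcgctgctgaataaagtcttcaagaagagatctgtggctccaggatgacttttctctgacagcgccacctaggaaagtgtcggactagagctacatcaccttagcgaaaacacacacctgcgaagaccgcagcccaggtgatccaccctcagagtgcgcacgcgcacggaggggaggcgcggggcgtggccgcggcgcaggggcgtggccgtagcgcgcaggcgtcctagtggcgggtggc
Suz12 (chr11:79992856-79993155, plus strand): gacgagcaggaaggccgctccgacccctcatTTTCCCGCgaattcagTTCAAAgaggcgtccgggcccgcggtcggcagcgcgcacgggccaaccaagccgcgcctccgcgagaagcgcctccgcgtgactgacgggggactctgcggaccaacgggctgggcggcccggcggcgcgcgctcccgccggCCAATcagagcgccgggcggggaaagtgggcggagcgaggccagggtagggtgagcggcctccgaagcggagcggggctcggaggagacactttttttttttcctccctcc
In the Ezh2 window the word TTTGGCGC began at base 4 of the transcript, and CCAAT boxes lay at -90, -64 and -11. The Suz12 window held TTTCCCGC at -219, TTTGAA on the reverse strand at -203 and CCAAT at -61. The Ezh1 window held none of these words. Among the 10 genes an E2F word occurred only in the Ezh2 and Suz12 windows. Of the windows not shown, those of Eed and Cbx7 held TTTGAA and CCAAT, that of Asxl1 TTTGAA and those of Jarid2 CCAAT. The Bmi1, Ring1 and Rnf2 windows held none of the words. As given below, Eed and Cbx7 were higher in WT spleen, and Jarid2 and Rnf2 lower, so the words did not go with 1 direction. Of 32851 promoters of the same length, 2.26% held an E2F word, 17.9% TTTGAA and 37.4% CCAAT. A match is a run of letters and not a measured binding site, and each window covers 1 annotated start.

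**Figure D1:**
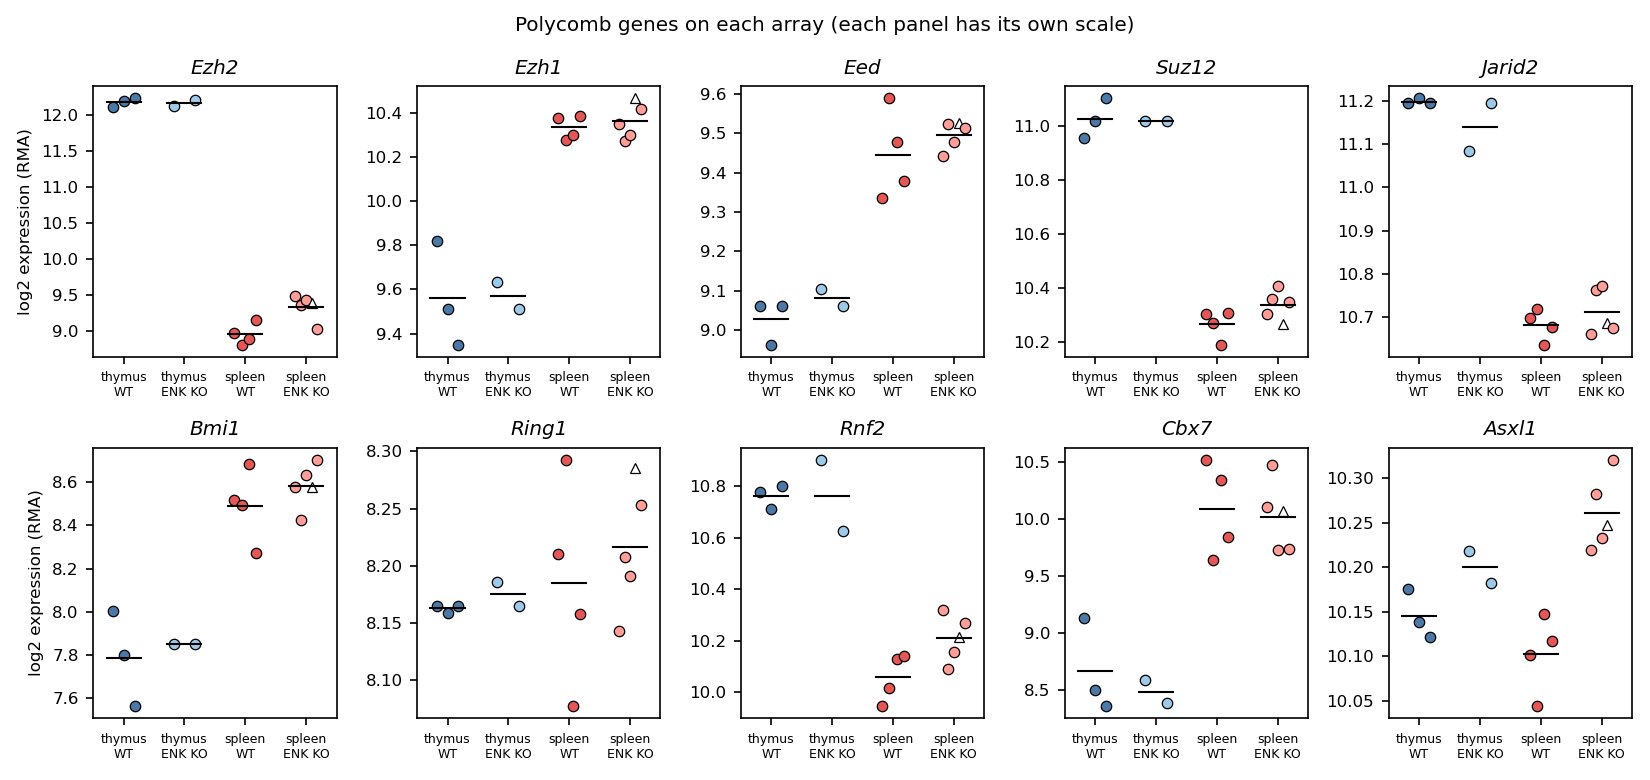
Each panel plots 1 gene's log2 RMA expression (vertical axis, with its own scale) on the 14 arrays by group, with a line at the group mean and a triangle for spleen ENK KO replicate 28. Ezh2 fell from 12.11 or more in thymus to 9.48 or less in spleen, Ezh1 and Cbx7 lay higher in spleen, and Ring1 and Asxl1 spanned narrow ranges.

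The catalytic subunits of PRC2 differed in opposite directions between the WT populations. Values are log2 expression as deposited, and all 10 genes passed the filter on low values on all 14 arrays. The 3 WT thymus arrays had Ezh2 values of 12.11, 12.19 and 12.23, and the 4 WT spleen arrays 8.81, 8.89, 8.97 and 9.16. Every spleen array lay far below every thymus array. The log2 difference was -3.22 (SE 0.10; limma adjusted p = 3.62e-11), a 9.30-fold lower level in spleen CD8+ cells. The WT spleen arrays also entered the comparison by which Ezh2 and Asxl1 were chosen, so the values of these genes here are not fully independent of the choice. Only 0.367% of the 13641 genes tested were lower by more, and Ezh2 was the most changed of the 10. These are bulk samples, so fewer cells with a transcript and less RNA per cell cannot be told apart.

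Ezh1, the alternative catalytic subunit, was higher in spleen. Its WT thymus values were 9.35, 9.51 and 9.82 and its WT spleen values 10.28, 10.30, 10.38 and 10.39, with no overlap. The log2 difference was 0.77 (SE 0.09; limma adjusted p = 6.45e-06), or 1.71-fold. Thymus replicate 7 set the upper end of the thymus range, and without it the difference was 0.91.

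The core subunits did not follow a single direction. Suz12, which the stability of PRC2 depends on, had values of 10.96, 11.02 and 11.10 in WT thymus and 10.19, 10.27, 10.30 and 10.31 in WT spleen. It fell by 0.76 on the log2 scale (SE 0.05; limma adjusted p = 2.17e-08). Eed, which reads the methyl mark and stimulates the enzyme, had values of 8.96, 9.06 and 9.06 in WT thymus and 9.34, 9.38, 9.48 and 9.59 in WT spleen. It was higher in spleen by 0.42 (SE 0.06; limma adjusted p = 2.99e-05). A second Eed probe set lay under the filter, at 5.93 to 6.31 over all arrays, and averaging both left a difference of 0.14. Jarid2 had values of 11.19, 11.19 and 11.21 in WT thymus and 10.64, 10.68, 10.70 and 10.72 in WT spleen, a fall of 0.51 (SE 0.04; limma adjusted p = 2.93e-07).

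In PRC1 the paired ligases behaved differently. Rnf2, the main ubiquitin ligase of the complex, had values of 10.71, 10.78 and 10.80 in WT thymus and 9.95, 10.02, 10.13 and 10.14 in WT spleen. It was lower in spleen by a factor of 1.63 (log2 difference -0.71, SE 0.08; limma adjusted p = 2.63e-06). Its paralogue Ring1 was at 8.16 to 8.17 in WT thymus and 8.08 to 8.29 in WT spleen, so the groups overlapped. The Ring1 difference was 0.022 with a 95% interval from -0.089 to 0.13 (limma adjusted p = 0.72).

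Bmi1 and Cbx7, which are partners in canonical PRC1, were both higher in spleen. Bmi1 had values of 7.56, 7.80 and 8.002 in WT thymus and 8.27, 8.49, 8.52 and 8.68 in WT spleen. The Bmi1 difference was 0.70 (SE 0.11; limma adjusted p = 6.14e-05). Cbx7 had values of 8.36, 8.51 and 9.13 in WT thymus and 9.64, 9.84, 10.34 and 10.52 in WT spleen. The groups did not overlap, and the difference of 1.42 (SE 0.24; limma adjusted p = 0.000173), or 2.67-fold, was the largest rise of the 10 genes. Only 3.86% of genes tested were higher in spleen by more.

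Asxl1 stayed within a narrow range in the WT populations. Its values were 10.12, 10.14 and 10.18 in WT thymus and 10.04, 10.10, 10.12 and 10.15 in WT spleen. The groups overlapped, and the difference was -0.043 with a 95% interval from -0.13 to 0.047 (limma adjusted p = 0.371). Under quantile normalization over all arrays it turned to 0.034.

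In all, 4 of the 10 genes were called higher in WT spleen (Ezh1, Eed, Bmi1 and Cbx7), 4 lower (Ezh2, Suz12, Jarid2 and Rnf2) and 2 were not called. Over all genes tested 30.5% were called higher and 38.2% lower, 68.6% in either direction, and the groups of 71.8% did not overlap, so a call as such sets the Polycomb genes little apart. The median difference was -0.011 over the 10 genes and -0.045 over all genes tested.

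The ENK KO arrays, which share no array with the WT comparison, gave the tissue difference again. The same 4 genes were called higher and the same 4 lower in ENK KO spleen, against 27.4% higher and 37.1% lower over all genes tested. Ezh2 was at 12.12 and 12.21 on the ENK KO thymus arrays and at 9.02 to 9.48 on the ENK KO spleen arrays. Its difference was -2.83 (SE 0.11; limma adjusted p = 3.22e-10), or 7.09-fold. The ENK KO spleen arrays entered the choice of Ezh2 and Asxl1 in the same way. Ezh1 was higher by 0.79 (SE 0.10; limma adjusted p = 1.50e-05) and Cbx7 by 1.53 (SE 0.26; limma adjusted p = 0.000225). Suz12, Jarid2 and Rnf2 were lower, with differences of -0.68, -0.43 and -0.55, and Eed and Bmi1 higher, by 0.41 and 0.74. Ring1 and Asxl1, at 0.040 and 0.060, were not called. Without replicate 28 the same 8 genes were called in the same directions, with differences of -2.84 for Ezh2, 0.76 for Ezh1, 0.41 for Eed, -0.67 for Suz12, -0.42 for Jarid2, 0.74 for Bmi1, -0.56 for Rnf2 and 1.52 for Cbx7. Ring1, at 0.023, and Asxl1, at 0.063, were again not called. The tissue and array set cannot be told apart here either.

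**Figure D2:**
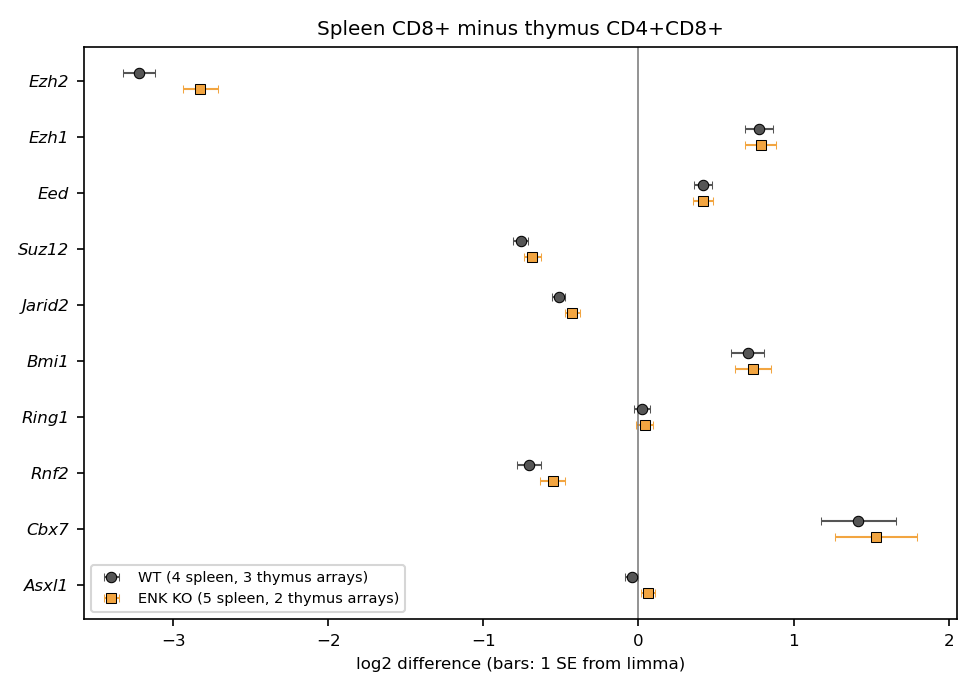
Points give the log2 difference of spleen CD8+ minus thymus CD4+CD8+ for each of the 10 genes, within WT (4 and 3 arrays, circles) and within ENK KO (5 and 2 arrays, squares), with bars of 1 SE from limma. Ezh2 stands at -3.22 and -2.83 and Cbx7 at 1.42 and 1.53, while Ring1 and Asxl1 lie near 0 in both.

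The balance of the catalytic subunits was read as the Ezh1 minus the Ezh2 log2 value on each array. Since different probe sets cannot be compared in level, only its shift between groups is read, and the value says nothing about which subunit is more abundant. On the WT thymus arrays it was -2.29, -2.68 and -2.88, and on the ENK KO thymus arrays -2.49 and -2.70. On the WT spleen arrays it was 1.23, 1.41, 1.41 and 1.46. The 14 arrays formed separate thymus and spleen ranges. The mean was -2.62 ± 0.30 (SD, n = 3) in WT thymus and 1.38 ± 0.10 (SD, n = 4) in WT spleen. The balance thus shifted towards Ezh1 by 3.99 on the log2 scale, a 15.9-fold change of the ratio. Most of it came from Ezh2, whose difference was -3.22 against 0.77 for Ezh1.

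In ENK KO mice the balance was -2.59 ± 0.15 (SD, n = 2) in thymus and 1.03 ± 0.22 (SD, n = 5) in spleen, a shift of 3.62 or 12.3-fold. Without replicate 28 the spleen mean was 1.01 ± 0.26 (SD, n = 4) and the shift 3.60. The ENK KO spleen arrays were at 0.87, 0.88, 0.91, 1.08 and 1.39. Replicates 3, 6, 25 and 28 lay below every WT spleen array, and replicate 31 within the WT range. Of these, replicate 31 alone had the age of the WT animals, 7 months. The spleen mean was lower than in WT by 0.35, with overlap, and by 0.37 without replicate 28. The spleen value includes the Ezh2 difference by which Ezh2 was chosen and is a description. In thymus the shift between genotypes was 0.025.

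**Figure D3:**
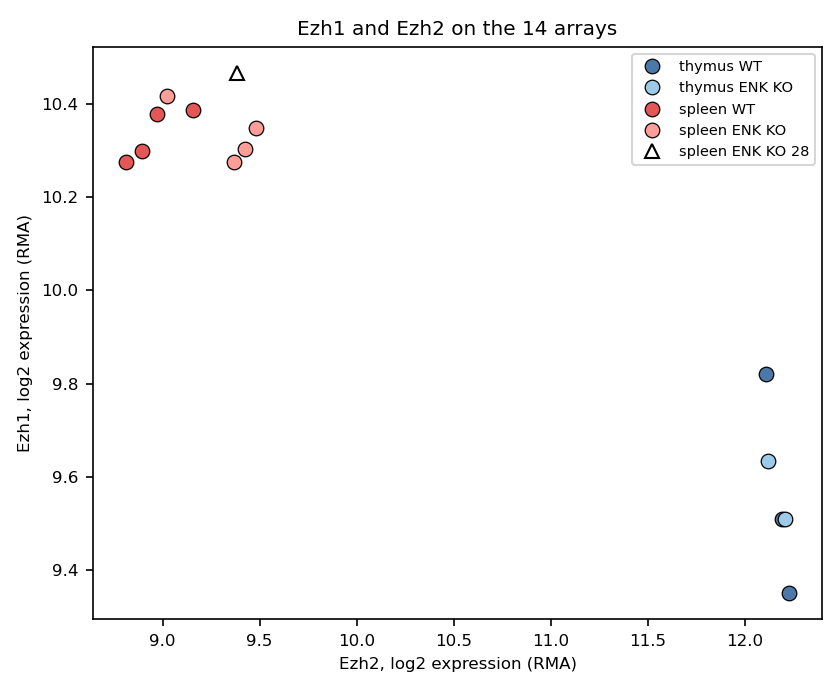
Each of the 14 arrays is placed by its Ezh2 value (horizontal, log2 RMA) and its Ezh1 value (vertical, log2 RMA), coloured by group, with a triangle for spleen ENK KO replicate 28. Thymus arrays lie at Ezh2 of 12.11 to 12.23 and Ezh1 of 9.35 to 9.82, spleen arrays at 8.81 to 9.48 and 10.27 to 10.47, and the axes differ in scale.

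Genes of cell division (the proliferation list), the setting in which Ezh2 is known to be abundant, were lower in WT spleen as well. Of 17 such genes tested, 13 were called lower and 0 higher, with a median difference of -1.15. The shares over all genes tested were 38.2% lower and 30.5% higher. Kif11, a spindle motor, fell by 3.19 on the log2 scale (SE 0.13; limma adjusted p = 3.60e-10). E2f2, a transcription factor of cell cycle entry, fell by 2.59 (SE 0.09; limma adjusted p = 8.34e-11). Bub1, a spindle checkpoint kinase, fell by 2.47. Ccna2, a cyclin of S phase and mitosis, fell by 2.73. The mean over the 17 genes was 9.00 to 9.39 on WT thymus arrays and 7.68 to 7.76 on WT spleen arrays. The part of cell division in the Ezh2 difference was not tested.

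The thymus comparison of ENK KO with WT is the one test of genotype that the choice of genes did not use. No Polycomb gene was called by limma, all 10 had an adjusted p of 1, and 0 had an unadjusted p under 0.05. Over all genes tested 0.0147% were called and 3.53% had an unadjusted p under 0.05. Ezh2 differed by -0.014, with a 95% interval from -0.28 to 0.25. Ezh1, at 9.51 and 9.63 in ENK KO, lay within the WT range and differed by 0.011 (95% interval -0.22 to 0.25). The intervals give the differences compatible with these arrays for each gene taken alone, and are not a limit of detection. A call needed an adjusted p under 0.05 over all genes tested.

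Eed was at 9.06 and 9.10 in ENK KO thymus, a difference of 0.054. Suz12 was at 11.02 on both arrays (difference -0.0061) and Jarid2 at 11.08 and 11.19 (difference -0.059). Each range touched or entered that of WT. Among PRC1 genes, Bmi1 was at 7.85 on both arrays (difference 0.061) and Ring1 at 8.17 and 8.19 (difference 0.013). Rnf2 differed by 0.00025. It was at 10.90 on replicate 1 and 10.62 on replicate 29, which lie on opposite sides of the WT range, so its mean depends on both. Cbx7, at 8.39 and 8.59, differed by -0.18 with the widest interval, from -0.81 to 0.45. Asxl1 was at 10.18 and 10.22 in ENK KO, both above the WT arrays (10.12 to 10.18), a difference of 0.055 (SE 0.05). Over all genes tested the groups did not overlap in 9.25%, in either direction.

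While Ezh2 kept to 12.12 and 12.21 in ENK KO thymus, all 17 division genes lay above their WT mean there, 11 of them at an unadjusted p under 0.05. Such a p was found for 3.53% of all genes tested. The 17 genes were read on the same 2 ENK KO arrays and can vary together. Their count is thus not one of independent observations. The median difference of the 17 was 0.39, and none was called by limma after adjustment. The mean over the list was 9.48 on ENK KO replicate 1 and 9.76 on replicate 29, above the WT range of 9.00 to 9.39. Bub1 had the smallest p of the list (difference 0.70, SE 0.15; limma adjusted p = 0.417). With only 2 ENK KO arrays of different age and sex, genotype, age and sex cannot be told apart on replicate 1. Replicate 29, a single array, was from a 7-month-old male, as were WT replicates 32 (9.00) and 38 (9.39).

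In spleen the values by which Ezh2 and Asxl1 were chosen were as follows. Ezh2 was at 8.81, 8.89, 8.97 and 9.16 in WT and at 9.02, 9.37, 9.38, 9.42 and 9.48 in ENK KO. The 4 upper ENK KO arrays lay above all WT arrays, and replicate 31, at 9.02, fell inside the WT range. Replicate 31 was the only ENK KO spleen array from a 7-month-old animal, the age of all WT animals. Replicates 3, 6, 25 and 28 were from animals of 2, 2, 9 and 6 months, so genotype and age cannot be told apart on them. The difference was 0.38 (SE 0.09), a 1.30-fold higher mean, and 0.37 without replicate 28. Without replicate 31 it was 0.46. Asxl1 was at 10.04, 10.10, 10.12 and 10.15 in WT and at 10.22, 10.23, 10.25, 10.28 and 10.32 in ENK KO. All ENK KO arrays lay above all WT arrays, by a difference of 0.16 (SE 0.04), and the same held without replicate 28. Replicate 31, inside the WT range for Ezh2, had the highest Asxl1 value, 10.32.

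By p, Asxl1 stood 17th and Ezh2 24th of 13641 genes in this comparison. These places restate the rule by which both genes were chosen and are no result. The lack of overlap of Asxl1 is tied to the same choice. The next of the 10, Rnf2, stood at place 885. Over all genes 0.00733% were called, and 0.894% had every ENK KO array above every WT array (2.13% without replicate 28). Rnf2 was at 9.95 to 10.14 in WT and 10.09 to 10.32 in ENK KO, a difference of 0.15 (SE 0.07) with overlap. Ezh1 spanned 10.27 to 10.47 and Cbx7 9.73 to 10.47 on the ENK KO arrays. Bmi1 differed by 0.092, Suz12 by 0.069, Eed by 0.051, Ring1 by 0.032, Jarid2 by 0.029, Ezh1 by 0.026 and Cbx7 by -0.065, all with overlap. Without replicate 28 the differences were 0.15 for Rnf2, 0.094 for Bmi1, 0.087 for Suz12, 0.044 for Eed, 0.014 for Ring1, 0.035 for Jarid2, -5.9e-05 for Ezh1 and -0.076 for Cbx7.

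Summed markers of other cells were read on the same spleen arrays. The mean of 4 B cell genes was 7.87 to 8.38 in WT and 7.22 to 8.16 in ENK KO, and that of 4 platelet genes 7.20 to 7.45 and 6.85 to 7.04. The mean of 6 genes of CD4 and regulatory T cells was 7.38 to 7.62 in WT and reached 10.52 in ENK KO, on replicate 28. The mean over the division genes was 7.68 to 7.76 in WT and 7.65 to 7.88 in ENK KO. Their part in the Ezh2 and Asxl1 values was not tested, beyond the fit without replicate 28.

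**Figure D4:**
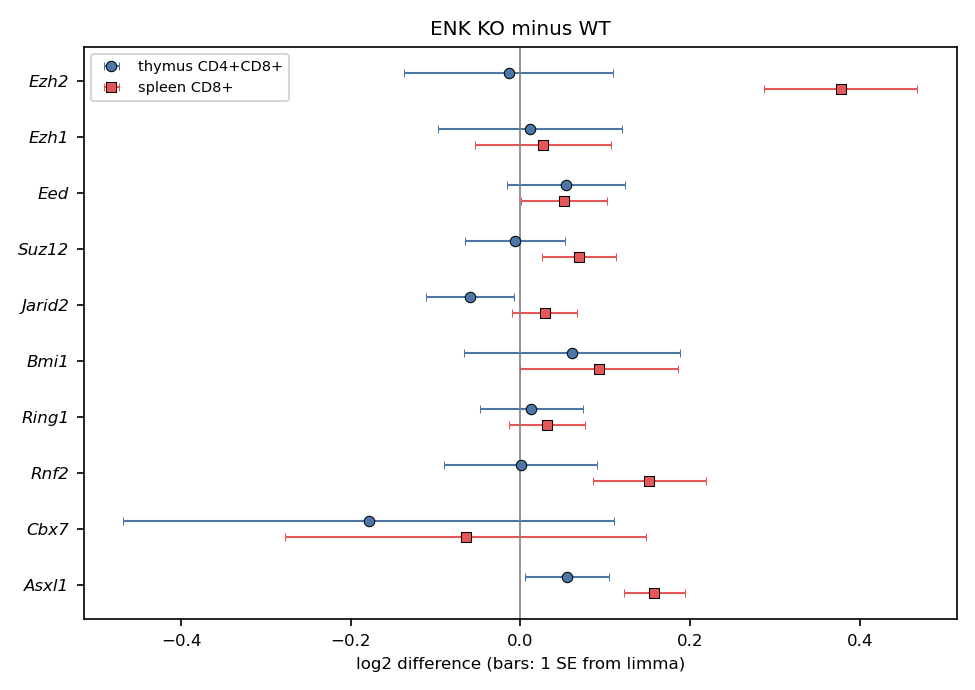
Points give the log2 difference of ENK KO minus WT for each of the 10 genes in thymus CD4+CD8+ (circles, 2 and 3 arrays) and spleen CD8+ cells (squares, 5 and 4 arrays), with bars of 1 SE from limma. The spleen points of Ezh2 (0.38) and Asxl1 (0.16) are those by which these genes were chosen, and no thymus point was called.

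The genes differed in how closely replicates agreed. The pooled SD within groups was 0.35 for Cbx7, larger than in 96.8% of genes tested, and 0.14 for Ezh2. It was 0.038 for Asxl1 and 0.046 for Jarid2, against a median of 0.096 over all genes tested. The Asxl1 difference in spleen is thus small in fold and rests on tight replicates. Thymus WT replicate 7 had the highest thymus value of Ezh1 (9.82), Bmi1 (8.002) and Cbx7 (9.13) and the lowest of Ezh2 (12.11).

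Deviations from group means were also correlated over the 13 arrays without replicate 28, as a description. Impdh1 (r = 0.93), Zfyve27 (r = 0.92) and Ergic3 (r = 0.92) were most like Ezh1, and with all 14 arrays their r was 0.76, 0.93 and 0.93. Kpna6, Kif1a and Art5 (each r = 0.93) were most like Ezh2, with 0.83, 0.93 and 0.93 over 14 arrays. These genes were the top of 13641, arrays of a group share their tissue and processing, and thymus values often repeat. Among the 10 Polycomb genes themselves r ran from -0.89, for Jarid2 with Rnf2 (-0.87 over 14 arrays), to 0.57, for Ezh1 with Bmi1 (0.54 over 14 arrays). The next most negative pair was Suz12 with Bmi1, at -0.71 (-0.63 over 14 arrays).

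The remaining Polycomb system was read from a list of 44 genes, of which 38 were tested. In WT spleen against WT thymus 12 were called higher, 19 lower and 7 neither, with a median of -0.26. In ENK KO the counts were 15 higher, 17 lower and 6 neither. As above, 68.6% and 64.4% of all genes tested were called in these comparisons.

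All 7 accessory and histone-binding genes of PRC2 that were tested differed between WT populations, 4 higher and 3 lower in spleen. The share called over all genes tested was 68.6%. Mtf2, which guides PRC2 to unmethylated CpG islands, was at 10.69 to 10.87 in thymus and 9.41 to 9.65 in spleen. It fell by 1.20 on the log2 scale (SE 0.07; limma adjusted p = 6.88e-09), or 2.30-fold. Phf19, a paralogue of Mtf2, fell by 0.63 (SE 0.04; limma adjusted p = 5.44e-09). Its value was the same, 7.80, on all 3 WT thymus arrays, which thus added no spread to its SE. Phf1, the remaining paralogue, was higher in spleen by 0.61 (SE 0.07; limma adjusted p = 3.40e-06), and Epop, an accessory subunit that binds elongin, by 0.39. The Mtf2, Phf19 and Phf1 paralogues thus did not share a direction.

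Of 21 further PRC1 genes 7 were called higher and 10 lower, against 30.5% and 38.2% of all genes tested. Pcgf3, a ring finger partner of variant PRC1, fell by 1.54 (SE 0.11; limma adjusted p = 4.37e-08), and Phc1, a polyhomeotic subunit, by 0.96 (SE 0.08; limma adjusted p = 1.38e-07). Bcorl1, a corepressor of variant PRC1, fell by 0.60. Pcgf2, the paralogue of Bmi1, was higher in spleen by 0.94 (SE 0.11; limma adjusted p = 4.19e-06), the direction that Bmi1 also took. Its values were low, at 6.11 to 6.33 in WT thymus and 7.14 to 7.23 in WT spleen. All thymus arrays lay under the filter value of 6.76, so Pcgf2 was tested only through the spleen arrays. The same held for Auts2 of this list, at 6.45 to 6.47 on the thymus arrays and 7.34 to 7.71 in WT spleen. Genes tested in this way could hardly be called lower, which limits what the counts of the list show.

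Of 8 further genes of the deubiquitinase complex 1 was called higher and 5 lower, against 30.5% and 38.2% of all genes tested. Bap1, the enzyme that works with Asxl1, fell by 0.63 (SE 0.06; limma adjusted p = 4.47e-07), whereas Asxl1 itself was not called. Foxk1, a forkhead factor bound by the complex, was higher in spleen by 1.54 (SE 0.08; limma adjusted p = 3.02e-09). Hcfc1, a cofactor, fell by 0.81 and Kdm1b, a lysine demethylase counted with the complex here, by 0.91.

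The demethylases that remove the PRC2 mark were Kdm6a and Kdm6b. Kdm6a fell by 0.57 (SE 0.16; limma adjusted p = 0.00706), and Kdm6b differed by -0.31 (SE 0.18; limma adjusted p = 0.141). Without spleen WT replicate 34 the Kdm6b difference was -0.45 (limma adjusted p = 0.0261). Kdm6a is X-linked and followed Xist: the 4 arrays with high Xist were at 10.98 to 11.23, the other thymus arrays at 10.74 to 10.83 and the other spleen arrays at 10.27 to 10.49. With the sex label as a covariate its tissue difference was -0.55 (SE 0.11; limma adjusted p = 0.000692). That label counts spleen WT replicate 22 as female, although its Xist value was 5.90 and its Kdm6a value 10.27. The fit is thus no adjustment for Xist level. Without thymus WT replicate 7, the only WT array with high Xist (13.28), the tissue difference was -0.44. The part of sex in the Kdm6a difference was not tested.

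Trithorax and COMPASS genes, whose products set activating marks in opposition to Polycomb, were called in 6 of 11 cases, 1 higher and 5 lower in WT spleen. The shares over all genes tested were 30.5% higher and 38.2% lower. Rbbp5, a core COMPASS subunit, fell by 0.60 (SE 0.04; limma adjusted p = 1.85e-08), Ash2l by 0.40 and Kmt2c by 0.34. Rbbp5 had the same value, 9.38, on all 5 thymus arrays, which thus added no spread to its SE. Kmt2d, a methyltransferase, was called higher by 0.35 (limma adjusted p = 0.000278), and the mean of its probe sets gave 0.021 (limma adjusted p = 0.778).

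Genes known as Polycomb targets moved in both directions, 5 of 14 tested higher and 4 lower in WT spleen. With 30.5% called higher and 38.2% lower over all genes tested, these counts set the targets little apart. The T-box factors of effector CD8+ cells were the largest: Eomes was at 5.49 to 5.53 in WT thymus and 10.30 to 10.82 in WT spleen, and Tbx21 was higher by 3.20 (SE 0.37; limma adjusted p = 5.55e-06). Ifng, the interferon gamma gene, was higher by 2.85 (SE 0.49; limma adjusted p = 0.000177). On every thymus array Eomes, Tbx21, Ifng, Ebf1 and Prdm1 lay under the filter value of 6.76, so they were tested only through the spleen arrays. Ebf1, a B cell factor, was at 5.62 to 5.72 in WT thymus and 6.67 to 7.31 in WT spleen. The mean of 4 B cell genes was 7.02 to 7.18 in WT thymus and 7.87 to 8.38 in WT spleen. The part of B cell transcripts in the target counts was not tested. Cdkn2a, a cell cycle inhibitor locus silenced by Polycomb in many cells, was at 7.36 to 7.43 in thymus and 7.14 to 7.20 in spleen, a fall of 0.25 (limma adjusted p = 7.15e-05). Which of these genes carried the PRC2 mark in these cells was not measured.

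**Figure D5:**
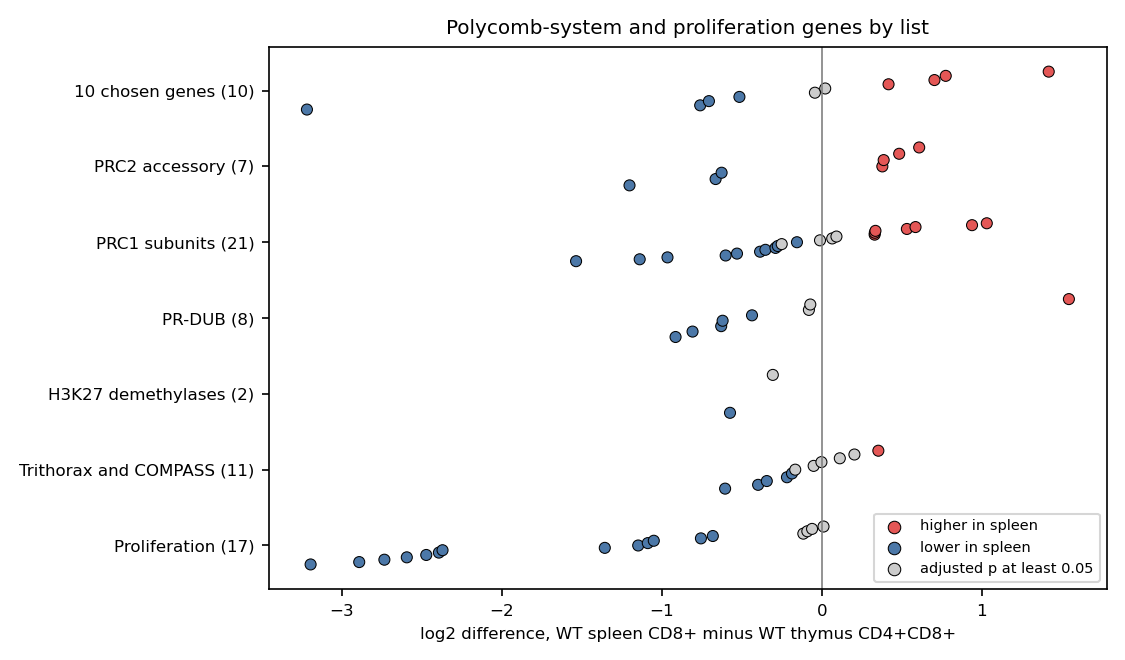
Each point is a gene's log2 difference of WT spleen minus WT thymus, in rows by list with the number tested in brackets; red and blue mark genes called higher and lower by limma and grey those not called. Ezh2 at -3.22 lies below every other point, with the lowest division gene, Kif11, at -3.19.

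In thymus ENK KO none of the 38 other Polycomb-system genes was called by limma and 2 had an unadjusted p under 0.05, with a median of -0.0089. Such a p was found for 3.53% of all genes tested. Yaf2, a partner of the ligases in variant PRC1, came closest. It was at 9.32, 9.38 and 9.57 in WT and at 8.97 and 8.98 in ENK KO, so that the groups did not overlap. The difference was -0.45 (SE 0.08; limma adjusted p = 0.151), and with array weights it was -0.48 (limma adjusted p = 0.0127). Mtf2 differed by 0.16, Hcfc1 by -0.091, Kdm6a by 0.052, Wdr5 by 0.037 and Hoxa5 by -0.34, each with an adjusted p of 1. In spleen, as a description, 24 of the 38 lay above 0 in ENK KO, with a median of 0.035.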

How the data were processed

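RNA of each sample was hybridised to an Affymetrix mouse array, 14 in all. The deposited unit is log2 expression for each probe set. The submitters' processing notes name RMA as the authors' method, which corrects background, quantile-normalizes and summarises probes. Whether this was done on all arrays together is not stated. Of 28213 probe sets, 21640 had a single gene symbol in the platform annotation, 1321 several and 5252 none in the table used. For 954 of 19937 genes several probe sets were available, and the one with the highest mean was kept. RefSeq's GRCm38.p6 gene table held 21553 of the 21640. No columns of other samples were present (0).

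A gene was tested if 2 or more arrays exceeded 6.76, the 40th percentile, which held for 13641. Group means of all 14 arrays were fitted with limma 3.58.1 (R 4.3.3; eBayes with a trend, Benjamini-Hochberg over all genes tested, calls at an adjusted p under 0.05). Intervals are 95% intervals from that fit. The steps were tested on simulated data.

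The 10 genes, the other lists and the marker lists were chosen with earlier results of these data known. Of each list up to 4 genes with the smallest p in the WT tissue comparison are named, and in thymus ENK KO the 1 with the smallest p. The spleen genotype comparison and the balance have no test between groups. The alternatives were other filters, quantile normalization, median centring, the mean of probe sets, other variance models, array weights, sex or age as a covariate, no 2-month-old animals, fits of the compared groups alone, each array left out, and fits without the arrays whose markers went against their labels.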

Additional observations from a re-analysis of the deposited data

Results flagged for a closer look

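The Ezh2 value of spleen ENK KO replicate 31, 9.02, lay far from the other 4 arrays of its group, which were at 9.37 to 9.48. Its gap to the nearest of them was 0.747 of the group's whole range, above Dixon's 95% critical value of 0.71. These Ezh2 values entered the choice of Ezh2, so the ratio is a description only. The value of replicate 31 was the 1 such value among 22 groups of values examined, and chance gives about 1 in 20. The 22 groups were not all independent, since the Ezh1 minus Ezh2 balance reuses the Ezh2 values. Replicate 31 also had the highest En2 value of all arrays, 7.87, and the highest Asxl1 value of its group, 10.32. It was also the only spleen ENK KO array from a 7-month-old animal, the age of all WT animals.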

How the results depend on the processing

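Under 27 other settings, 14 of which left out an array each, the count of Polycomb genes called stayed at 8 in the WT tissue comparison and at 0 in thymus ENK KO, and ran from 7 to 9 in the ENK KO tissue comparison. There Eed was lost with the mean of its probe sets (0.12, limma adjusted p = 0.0901) and Asxl1 gained with quantile normalization (0.13, limma adjusted p = 0.0254). Of the other Polycomb-system genes 29 to 33 were called in the WT tissue comparison, against 31 reported. In thymus ENK KO the count was 0 except for 1, Yaf2, with array weights. No reported difference past the threshold reversed. Leaving out each array in turn, the shift of the Ezh1 to Ezh2 balance ran from 3.86 to 4.16 in WT, 3.51 to 3.72 in ENK KO, -0.11 to 0.19 between genotypes in thymus and -0.44 to -0.31 in spleen. The spleen Ezh2 difference ran from 0.33 to 0.46 and that of Asxl1 from 0.14 to 0.17. In thymus the Ezh1 difference was 0.14 without WT replicate 7, and that of Rnf2 was -0.14 without ENK KO replicate 1 and 0.14 without replicate 29. Bub1 was at 0.99 and 0.41 without these. The cause of these shifts was not tested. No paired analysis was possible because the groups share no replicate number. Precision is limited by 2 ENK KO thymus arrays and by the repeated values on thymus arrays.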
